A study of Mus musculus with 4 samples.

Results

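The 10 genes Cd3d, Cd3e, Cd3g, Cd4, Cd8a, Cd28, Cd5, Thy1, Lck and Zap70 mark the T lymphocyte lineage, and their signals were read in 4 lines of L1210, a mouse lymphocytic leukemia cell line. They were taken by gene symbol, and all 13 probes of these 10 genes are described, among 55681 probes and 24561 symbols on the array. The parent line is labelled as DBA subline 212. By the labels and the study's methods, L1210-Fbxw11a carried the full-length isoform of Fbxw11, the substrate-binding F-box subunit of an SCF ubiquitin ligase. L1210-Fbxw11c carried an isoform without exon 2, L1210-Fbxw11d an isoform without exons 2 and 3, and L1210-control was labelled as control. All 4 lines were infected with lentivirus, sorted for GFP and grown in RPMI 1640 with fetal bovine serum. Whether a line was 1 clone or a pool, and what the control virus carried, is not given in the sources used here. RNA of each line was labelled with Cy3 and hybridised to 1 Agilent 1-colour array, so differences between lines stand without replicates and no test was possible.

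The CD3 gamma, delta and epsilon chains pair with one another and carry the signal of the T cell receptor into the cell. CD4 and CD8 are coreceptors that bind MHC molecules and bring the kinase LCK to the receptor. LCK phosphorylates the CD3 chains, ZAP70 docks on them and passes the signal on, CD28 adds the costimulatory signal, and CD5 dampens it. THY1 is a surface glycoprotein of mouse T cells and thymocytes that is also found on other cell types.

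Each probe was a single 60-base sequence, so a value stands for the part of the transcript under it. Cd4, Cd8a and Zap70 had 2 probes each, named here by the first base of the probe in the transcript. The probe of Cd3d and, for the genes with 2 probes, the one nearer the 5′ end of the transcript are shown because the detection calls and the disagreement within a gene rest on them.
Cd3d: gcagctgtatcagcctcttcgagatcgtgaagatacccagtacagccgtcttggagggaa
Cd4, base 1242: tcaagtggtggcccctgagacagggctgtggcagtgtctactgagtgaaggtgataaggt
Cd8a, base 464: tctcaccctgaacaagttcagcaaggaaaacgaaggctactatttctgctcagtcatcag
Zap70, base 1833: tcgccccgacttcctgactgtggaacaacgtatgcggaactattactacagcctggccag

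On mouse build mm9 the Cd3d probe lay at chr9:44794171-44794402 on the plus strand and skipped 172 genomic bases within that span. The Cd4 probe at base 1242 lay at chr6:124817706-124817765 on the minus strand. The Cd8a probe at base 464 lay at chr6:71323885-71323944 on the plus strand, and the Zap70 probe at base 1833 at chr1:36839315-36839374 on the plus strand. The probes of Cd3g, Cd3d and Cd3e were neighbours within 29.0 kb of chromosome 9. The longest run of bases that a probe of these genes shared with a probe of another symbol was 13 to 16. The letters AATAAA, the common polyadenylation signal, searched on the strand of the probe, stood in 5 of the 13 probes (38.5%), those of Cd3e, Cd4 at base 3035, Cd28, Thy1 and Lck. They stood in 10.1% of all probes.

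The arrays differed in brightness, with a 75th percentile of the signal of 620, 627, 672 and 954 for the control, Fbxw11a, Fbxw11c and Fbxw11d lines. Signals below are therefore scaled to the L1210-control array by that percentile and are in arbitrary units. L1210-Fbxw11d was hybridised on slide 2 and the other lines on slide 1, so that its slide and its isoform cannot be told apart. Between 62.5% and 68.7% of all probes per array were well above background, a flag the scanner software sets for each spot. Among probes with that flag on every spot, the lowest signal was 18.1 on the L1210-control array and 10.4 to 14.9 on the scaled arrays of the other lines. The arrays showed no 2-fold rise of Fbxw11 itself in any variant line, with log2 ratios of 0.31, 0.27 and 0.03 at one probe and 0.21, 0.22 and 0.18 at the other in the Fbxw11a, Fbxw11c and Fbxw11d lines. Whether these probes lie in the sequence carried by the virus was not analysed here, so they do not check the labels. The study reports high Fbxw11 levels in the variant lines by RT-PCR and western blotting, which were not analysed here. The spot error given beside a log2 ratio is the standard deviation between spots of probes of like brightness, combined over both arrays. For a probe printed on 10 spots it is the standard error of the mean of its own spots, combined likewise. It leaves out the spread between cultures, sorts and RNA extractions.

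The detection pattern was the same gene for gene on all 4 arrays. Cd3e, Cd4, Cd28, Cd5, Lck, Zap70 and 1 probe of Cd8a were well above background on every array. Cd3d, Cd3g and Thy1 were well above background on none. Thus 9 of the 13 probes were detected on all 4 arrays, 1 on a single array and 3 on none, where 59.4% of all probes were detected on all 4 arrays and 26.9% on none.

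**Figure D1:**
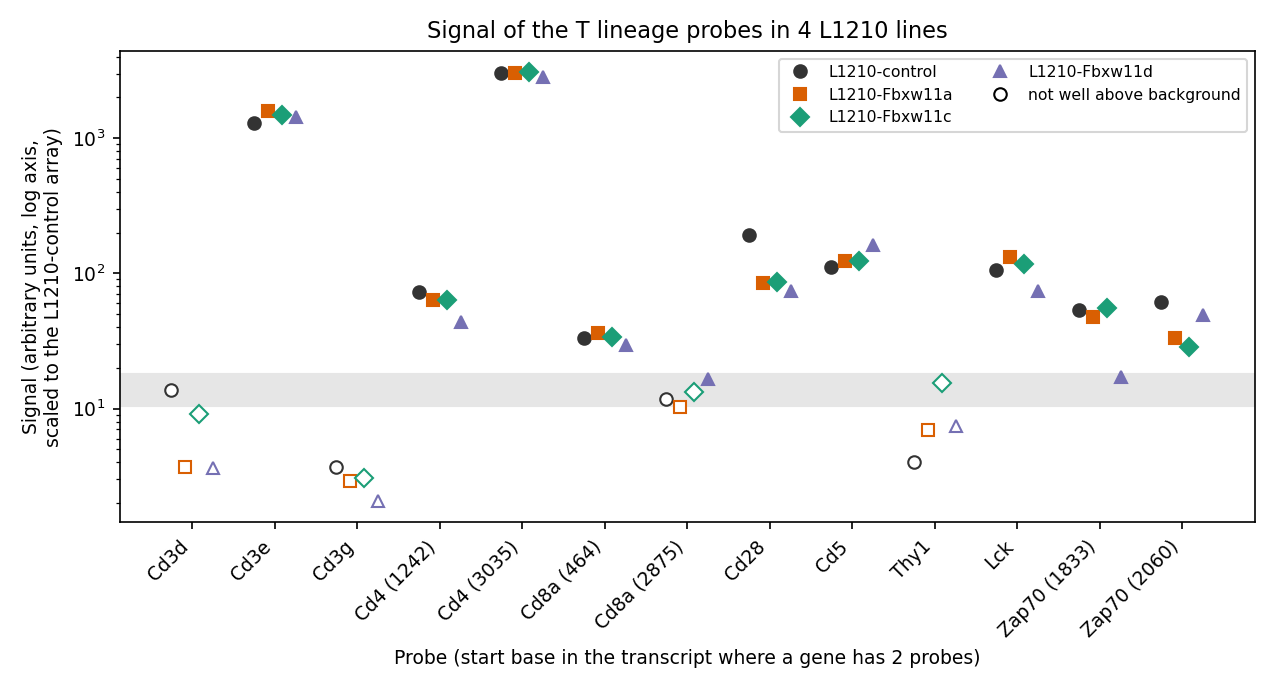
Signal of the 13 T lineage probes in each of the 4 L1210 lines, in arbitrary units scaled to the L1210-control array, on a log axis. Each point is 1 probe on 1 array, open points are not well above background, and the grey band runs from 10.4 to 18.1, the range of the lowest signals well above background; Cd3d, Cd3g and Thy1 have open points on all 4 arrays, and Cd28 is higher in L1210-control than in the 3 other lines.

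Of the 3 CD3 chains, only the epsilon chain was detected. The Cd3e probe (chr9:44806828-44806887, minus strand) read 1293.3 in the control, 1599.0 in Fbxw11a, 1477.8 in Fbxw11c and 1440.5 in Fbxw11d cells, which is 71.5 to 139 times the lowest signal well above background on the same array. The control was the lowest of the 4 lines. Its log2 ratios to L1210-control were 0.31 ± 0.09, 0.19 ± 0.09 and 0.16 ± 0.12 (spot error) in the same order of lines, all under 2-fold.

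Cd3d and Cd3g had no measured level in any line. Cd3d read 13.6, 3.70, 9.06 and 3.61 in the control, Fbxw11a, Fbxw11c and Fbxw11d lines. Cd3g (chr9:44777868-44777927, minus strand) read 3.72, 2.91, 3.04 and 2.07. No fold change is given for either gene, since both sides lie at background. Each gene rests on 1 probe and 1 spot per array, so a transcript without the probed stretch would not be seen.

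Cd4 was detected in every line by both of its probes, at levels far apart, and the reason was not tested. The probe at base 3035, which lies nearer the 3′ end (chr6:124814711-124814770, minus strand), read 3020.1, 3035.6, 3071.3 and 2830.2 in the control, Fbxw11a, Fbxw11c and Fbxw11d lines. These values were 167 to 272 times the lowest signal well above background on the same array, and the 4 lines were nearly level, with log2 ratios of 0.01 ± 0.09, 0.02 ± 0.08 and -0.09 ± 0.11 (spot error) to the control.

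The other Cd4 probe, at base 1242, was printed on 10 spots and so has its own spot error, a standard error of the mean. Its signal was 4.00 to 4.42 times the lowest signal well above background on the same array. It read 74.7 ± 19.8 (SD between spots, n = 10 spots) in L1210-control, 64.9 ± 14.0 (n = 10) in L1210-Fbxw11a, 65.1 ± 16.7 (n = 10) in L1210-Fbxw11c and 44.4 ± 9.34 (n = 9) in L1210-Fbxw11d. The spots ran from 50.4 to 113 in the control and from 30.9 to 57.8 in L1210-Fbxw11d, so that the lowest control spots overlapped with the highest of that line. The log2 ratios of -0.19 ± 0.16 and -0.20 ± 0.18 in L1210-Fbxw11a and L1210-Fbxw11c were close to the spot error, and that in L1210-Fbxw11d was -0.74 ± 0.16. Under the other normalizations, background correction and spot filters the last ratio lay between -0.52 and -0.74. The 2 probes, 1793 bases apart in the transcript, differed in that line's log2 ratio by -0.64 ± 0.19 (base 1242 minus base 3035).

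Cd8a, the alpha chain of the other coreceptor, was read close to background. The probe at base 464 gave 33.4, 36.1, 33.8 and 29.5 in the control, Fbxw11a, Fbxw11c and Fbxw11d lines, with log2 ratios of 0.11 ± 0.49, 0.02 ± 0.53 and -0.18 ± 0.66 (spot error). No difference of these was larger than its error. The second probe, at base 2875 (chr6:71328911-71328970, plus strand), was printed on 10 spots, and the well above background flag was set on 2 of 9 spots in the control, 2 of 10 in Fbxw11a, 4 of 10 in Fbxw11c and 9 of 10 in Fbxw11d cells. The spot means were 13.0 ± 6.28, 11.7 ± 6.12, 14.3 ± 5.91 and 18.1 ± 7.97 (SD between spots). The ranges overlapped, and no fold change is given because the signal in L1210-Fbxw11d did not exceed the lowest signal well above background on the control array.

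**Figure D2:**
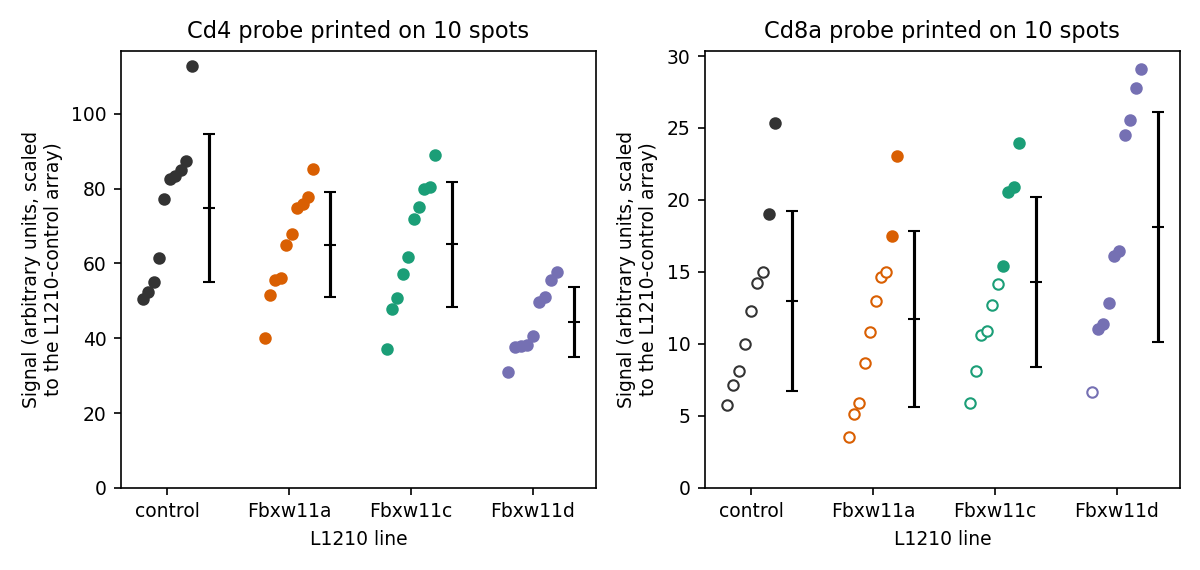
Signals of single spots, in arbitrary units scaled to the L1210-control array, for the Cd4 probe at base 1242 and the Cd8a probe at base 2875, the 2 T lineage probes printed on 10 spots. Points are spots (open: not well above background) and bars are the mean ± SD between spots of 1 array; all Cd4 spots are well above background, while for Cd8a 9 of 10 spots are in L1210-Fbxw11d and 2 to 4 in each of the other lines.

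Lck, the kinase bound to CD4 and CD8, was detected in every line. Its probe (chr4:129225614-129225673, minus strand) read 105 in the control, 132 in Fbxw11a, 118 in Fbxw11c and 73.5 in Fbxw11d cells. L1210-Fbxw11d was the lowest line and L1210-Fbxw11a the highest, and the 3 variant lines spanned 0.85 ± 0.27 on the log2 scale (spot error). Against the control the log2 ratios were 0.33 ± 0.24, 0.16 ± 0.24 and -0.52 ± 0.31, all under 2-fold. Under the other normalizations and background correction the ratio of L1210-Fbxw11d stayed below 0, between -0.30 and -0.62.

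Zap70, the kinase recruited to phosphorylated CD3 chains, was detected by both of its probes in every line, and the probes gave different patterns. At base 1833 it read 53.6 in the control, 47.3 in Fbxw11a, 55.1 in Fbxw11c and 17.2 in Fbxw11d cells. The last value was 1.66 times the lowest signal well above background on its array, and below the 18.1 of the control array. L1210-Fbxw11d stood apart, 3.11-fold lower than the control (log2 ratio -1.64 ± 0.80, spot error), while the other log2 ratios were -0.18 ± 0.40 and 0.04 ± 0.42. At base 2060 (chr1:36839542-36839601, plus strand) it read 60.9, 33.4, 28.4 and 49.2 in the same order. The value of L1210-Fbxw11c at that probe was 1.91 times the lowest signal well above background on its array. There L1210-Fbxw11c was 2.14-fold lower (-1.10 ± 0.55), L1210-Fbxw11a was 1.82-fold lower (-0.87 ± 0.42), and L1210-Fbxw11d differed by less than the spot error (-0.31 ± 0.41).

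The 2 Zap70 probes start 227 bases apart, and their log2 ratios differed by 0.68 ± 0.57, 1.14 ± 0.69 and -1.33 ± 0.90 (base 1833 minus base 2060) in the Fbxw11a, Fbxw11c and Fbxw11d lines. No line was more than 2-fold from the control at both. A change of the Zap70 transcript as a whole was therefore not shown in any line. With normexp background correction, run with an offset of 50, neither probe passed 2-fold. The log2 ratios were -0.87 in L1210-Fbxw11d for base 1833 and -0.55 in L1210-Fbxw11c for base 2060.

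Cd28, which encodes the costimulatory receptor, was more than 2-fold lower than in the control in all 3 variant lines on the scaled processed signals, and no other of the 10 genes was. Its probe (chr1:60830144-60830203, plus strand) read 192 in the control, 85.5 in Fbxw11a, 85.7 in Fbxw11c and 74.2 in Fbxw11d cells, with scanner errors of 19.6, 9.03, 9.14 and 7.71. The control stood above all 3 variant lines, which lay within 0.21 ± 0.27 on the log2 scale of one another. The signals were 2.25-fold, 2.25-fold and 2.59-fold lower, or -1.17 ± 0.19, -1.17 ± 0.17 and -1.37 ± 0.25 as log2 ratios with the spot error. The 3 ratios share the 1 control spot and are not independent of one another. Before scaling, the probe read 192, 86.4, 92.9 and 114. With normexp background correction, at the same offset of 50, the scaled log2 ratios were -0.79, -0.86 and -1.22. Cd28 was then past 2-fold in L1210-Fbxw11d alone. Fewer cells that express a gene and less RNA per cell cannot be told apart in RNA of a whole culture.

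Cd5, the inhibitory surface receptor, was detected in every line at 111 in the control, 124 in Fbxw11a, 123 in Fbxw11c and 161 in Fbxw11d cells (chr19:10792701-10792760, minus strand). L1210-Fbxw11d was the highest, with a log2 ratio of 0.54 ± 0.24 (spot error), and the other lines stood at 0.16 ± 0.24 and 0.16 ± 0.23. None reached 2-fold on the scaled values. Thy1 (chr9:43856591-43856650, plus strand) read 4.00, 6.91, 15.5 and 7.47 in the 4 lines in the same order and was well above background in none of them.

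**Figure D3:**
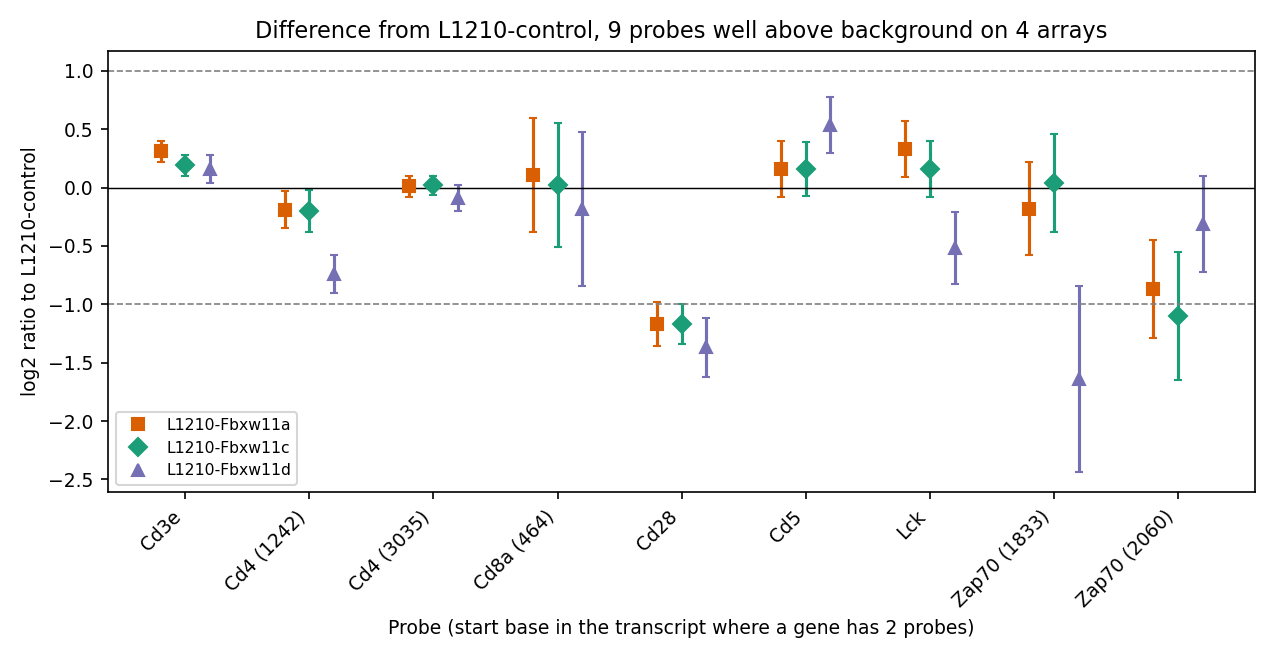
The log2 ratio to L1210-control of the 9 T lineage probes that were well above background on all 4 arrays, after scaling by the 75th percentile. Each point is 1 variant line, bars are the spot error, and dashed lines mark 2-fold; Cd28 lies below the lower line in all 3 variant lines, and each Zap70 probe in 1 line only.

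Counted together, 0 member probes were 2-fold or more higher in any variant line. Only probes detected in the control, in the variant line or in both were compared, and the background is the share of all probes compared that passed the same 2-fold rule. In L1210-Fbxw11a, 1 of 9 member probes compared was lower (Cd28), where 2.42% of all probes were lower and 2.71% higher. In L1210-Fbxw11c, 2 of 9 were lower (Cd28 and Zap70 at base 2060), beside 2.78% lower and 1.69% higher among all probes. In L1210-Fbxw11d, 2 of 10 were lower (Cd28 and Zap70 at base 1833), beside 5.99% lower and 0.985% higher. These counts are of 1 or 2 probes each and share the control array, so they are a description of these probes.

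The median log2 ratio of the member probes was 0.01 in Fbxw11a, 0.02 in Fbxw11c and -0.31 in Fbxw11d cells, beside 0.00 for all probes in each line. The member median of L1210-Fbxw11d, over the 9 probes with a measured ratio, moved with the processing. For the same probes it was -0.09 after median centring and -0.16 after quantile normalization. It was -0.15 in the deposited normalized values and -0.41 after normexp background correction. The balance of calls in that line depended on the scaling. Of all probes called there, 14.1% were higher under the 75th percentile, 35.6% after centring on the median, 30.0% after quantile normalization, 30.1% in the deposited normalized values and 4.09% after normexp background correction. Median centring raised the median of all log2 ratios in L1210-Fbxw11d by 0.21.

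The wider T cell receptor pathway, a list of 46 other genes with 75 probes, was also detected in part. By gene, 28 were well above background on all 4 arrays, 6 on 1 to 3 arrays and 12 on none. Among receptor chains, Cd247, which encodes the zeta chain, and Cd8b1, the partner of Cd8a, were detected on all 4 arrays. The Cd247 probe so detected read 18.8, 27.7, 17.8 and 29.4 in the control, Fbxw11a, Fbxw11c and Fbxw11d lines, close to background. The other Cd247 probe was well above background in L1210-Fbxw11a alone, at 16.4. Among adaptors 3 of 9 were (Lat, Skap1 and Sla2), and Lcp2, the adaptor SLP-76, was detected on none. Among kinases, phosphatases and other enzymes 7 of 9 were, Txk and Csk included, and Fyn was detected on none. Of 10 transcription factors, 7 were detected on all 4 arrays, Gata3 and Tcf7 included. Rag1 and Rag2, which rearrange antigen receptor genes, were detected on none.

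The shares of the pathway list past 2-fold are read beside those of all probes given above. In L1210-Fbxw11a 0 of 43 probes compared passed 2-fold, beside 2.71% higher and 2.42% lower among all probes. In L1210-Fbxw11c 1 of 41 was higher, beside 1.69% of all probes, namely a probe of the costimulatory receptor Cd27 that read 64.7 beside 27.8 in the control (log2 ratio 1.22). In L1210-Fbxw11d 3 of 44 were lower, near the 5.99% of all probes, and 2 of these were probes of Plcg1. Plcg1, a phospholipase, read 55.8 beside 129 (-1.21) at one probe and 29.9 beside 63.4 (-1.09) at another, while its remaining probe, at 971 beside 1092.5, gave -0.17. The list's median log2 ratio was 0.09, 0.02 and -0.06 in the Fbxw11a, Fbxw11c and Fbxw11d lines.

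**Figure D4:**
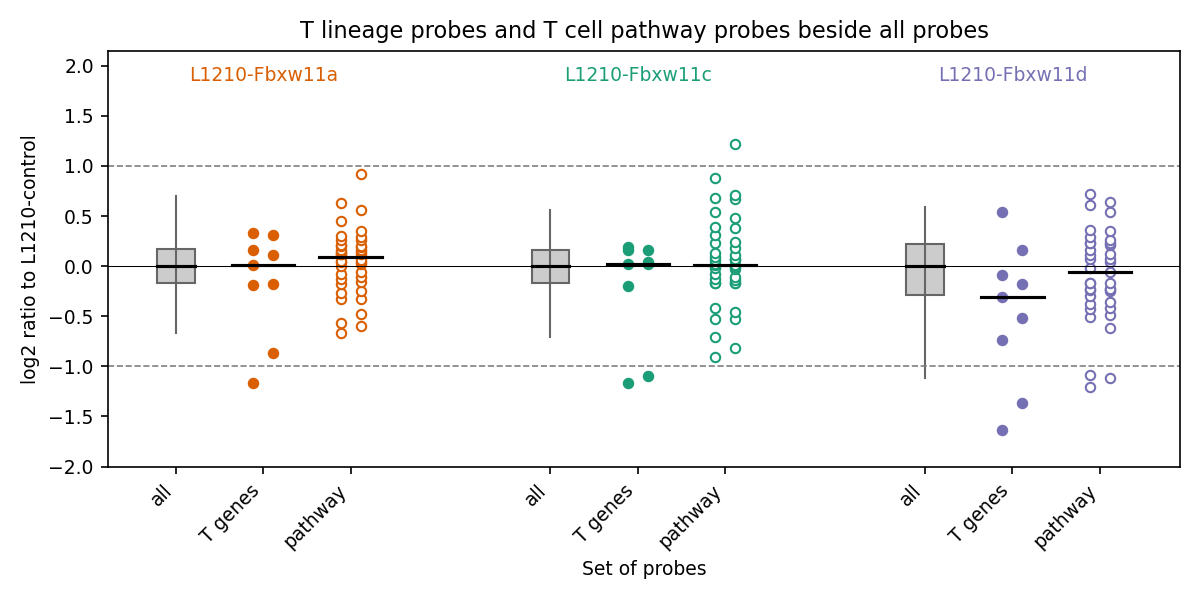
The log2 ratio to L1210-control of all probes compared (box: quartiles and median, whiskers: 5th to 95th percentile), of the T lineage probes and of the T cell pathway probes in each variant line. Points are probes with a measured ratio, thick bars are medians and dashed lines mark 2-fold. The median of the T lineage probes is -0.31 in L1210-Fbxw11d under this scaling (-0.09 after median centring) and 0.01 and 0.02 in the other lines.

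Genes of other blood lineages were detected beside the T lineage genes. Of 16 B lineage markers, 8 to 9 per array were well above background, led by Blnk, Cd24a and Cd22, and Ebf1, Ms4a1 and Cd79b were on none. Of 10 natural killer markers, 7 to 8 were, led by Eomes, Nkg7 and Prf1. Of 11 myeloid markers on the array, 8 to 9 were, led by Cd68, Ly6g and Itgam. In L1210-Fbxw11d the B lineage marker Pou2af1 was lower (14.2 beside 30.5 in the control, log2 ratio -1.10), as was 1 of 3 probes of the myeloid receptor Csf1r (-1.12), whose other 2 probes stayed under 2-fold. Gzma, a cytotoxic granule protease, was higher there (134 beside 57.4, 1.23), as was 1 of 2 probes of the macrophage marker Emr1, by at least 2.48 on the log2 scale. In L1210-Fbxw11c Pou2af1 was lower by at least 1.04 on that scale. The summed signal of the brightest probe of each gene ran over the 4 lines from 26721.5 to 33544.3 for the B lineage list, from 12506.9 to 15824.8 for the natural killer list, from 16692.2 to 20280.6 for the myeloid list and from 4671.1 to 5059.4 for the 10 T lineage genes. The part of other cell types in the values above was not tested.

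Among the 9 member probes well above background on all 4 arrays, the one with the widest range was Zap70 at base 1833, at 1.68 on the log2 scale. Of 33071 probes detected on all 4 arrays, 21878 had a gene symbol other than Zap70, and the 3 of these with the nearest log2 ratios were those of Tbata (-0.20, -0.04 and -1.59 in the Fbxw11a, Fbxw11c and Fbxw11d lines), 4933413J09Rik (-0.11, -0.08 and -1.70) and Nkain2 (-0.23, 0.08 and -1.49). Their distances from Zap70 over the 3 log2 ratios were 0.09, 0.16 and 0.16. The likeness covers 4 arrays of 1 experiment.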

How the data were processed

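The authors deposited Agilent Feature Extraction output for each array, with linear background-corrected signal intensity per spot and flags. They also deposited a table with log2 values normalized across the 4 arrays, the detection flag, gene symbols and mm9 positions. The labels name version 9.1 of the software and the file headers version 10.7.1.1. The normalization is not given in the sources used here.

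The 75th percentile of an array, over 59305 gene spots, was subtracted from its log2 signals. Control spots and flagged outlier spots (102 to 167 on each array) were dropped before the spots of each probe were averaged. No gene spot was saturated. A probe counted as well above background where at least 0.5 of its spots were. It was compared where that held on at least 1 of the 2 arrays and called at 2-fold, the study's threshold. Where the other side was not well above background, the fold is a bound against the higher of the probe's own signal and the lowest signal well above background there. The spot error came from 399 probes printed on 10 spots. For such a probe it was the SD of its own spots over the square root of their number. For other probes it was the median SD of the 50 such probes nearest in brightness. Precision is limited by having 1 array for each line.

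The members, the pathway list and the marker lists were chosen with earlier results of these data known. The pathway and marker lists were written from general knowledge. Named were every member probe, the listed genes that were called, the 3 brightest of each marker list, and the 3 probes with log2 ratios nearest to those of the member probe with the widest range. The genes of the pathway named without a call, and the B lineage markers named as not detected, were chosen after their values were seen. Some listed genes are not reported here. Calling was tested on simulated data. Tools were R 4.3.3 with limma 3.58.1, Python 3.11.15, numpy 2.4.6, pandas 2.3.3 and matplotlib 3.10.9.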

Additional observations from a re-analysis of the deposited data

How the results depend on the processing

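No paired analysis was possible because each line had 1 array, and for the same reason no replicate could be left out. Against 1, 2 and 2 member probes called in the Fbxw11a, Fbxw11c and Fbxw11d lines, normexp background correction gave 0, 0 and 1, a 3-fold threshold 0, 0 and 1, a 1.5-fold threshold 2, 2 and 3, and no filter on dim probes 2, 3 and 3. The 1.5-fold threshold added Zap70 at base 2060 in L1210-Fbxw11a and Cd4 at base 1242 in L1210-Fbxw11d, and dropping the filter added probes at background, Cd3d as lower in L1210-Fbxw11a and L1210-Fbxw11d and Thy1 as higher in L1210-Fbxw11c. Of all probes, 1932, 1655 and 2725 were called, which became 519, 445 and 1100 with normexp, 5102, 4689 and 7290 with no filter on dim probes, 4769, 4221 and 6899 at 1.5-fold and 887, 733 and 923 at 3-fold, and in L1210-Fbxw11a and L1210-Fbxw11c 979 and 835 where both arrays had to be well above background. With normexp the log2 ratio of Cd28 was -0.79, -0.86 and -1.22 in the 3 lines, that of Zap70 at base 1833 in L1210-Fbxw11d was -0.87 and that of Zap70 at base 2060 in L1210-Fbxw11c was -0.55; under quantile normalization, median centring, the deposited values, kept outlier spots and the stricter detection rule all of these stayed past 2-fold. Normexp was run with an offset of 50, beside signals of 17.2 to 192 for these Cd28 and Zap70 probes over the 4 lines. The cause of the changes was not tested, nor how much of the loss of calls came from that offset. Of 27 member ratios, 2 to 3 changed sign under median centring, normexp, quantile normalization or the deposited values, all of Cd4 at base 3035, Cd8a at base 464 or Zap70 at base 1833. Signal over background limits Cd3d, Cd3g, Thy1, Cd8a and Zap70.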
